A study of Caenorhabditis elegans with 46 samples.

Results

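ChIP-seq peaks of LIN-54, the DNA-binding subunit of the MuvB complex, were compared with those of LIN-9, LIN-37, and LIN-52, 3 other MuvB subunits, in wild-type late embryos of *C. elegans*. The members were chosen by target protein and genotype alone and comprise 10 of the 46 samples and 4 of the 13 deposited peak lists. These 4 lists hold 8752 of the 21925 peaks in the series. LIN-54, LIN-9, and LIN-52 were each profiled in 3 wild-type (N2) extracts, and 1 wild-type LIN-37 sample belongs to the series, whose list was made together with libraries of an earlier study.

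MuvB is a conserved protein complex that joins with an E2F-DP transcription factor and a pocket protein to form the DRM complex of *C. elegans*, called DREAM in mammals, which is known for the repression of cell cycle genes. LIN-54 contains cysteine-rich domains that recognise CHR promoter elements, LIN-52 contacts the pocket protein, LIN-9 is a core scaffold of MuvB, and LIN-37 is needed for repression by DREAM in mammalian cells. In *C. elegans* the E2F-DP pair is EFL-1 and DPL-1, and LIN-35 is the sole pocket protein. LIN-53, a histone-binding protein and the remaining MuvB subunit, was not analysed here.

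All worms were grown in liquid culture, and embryos were released by bleaching, aged to the late stage, frozen, ground, and crosslinked with formaldehyde. Each subunit was immunoprecipitated with its own antibody, so that a list reflects both a protein and an antibody. Per the labels, LIN-54 and LIN-9 were immunoprecipitated from the same 3 extracts (1a, 2a, and 3), LIN-52 from extracts 1b, 2b, and 3, and LIN-37 from extract 3. Looked up at the MuvB sites were also wild-type DPL-1 (extracts 1b, 2a, and 3), EFL-1 (1b, 2b, and 3), and LIN-35 (1a and 2a), and the lists of the same antibodies in *lin-35(n745)* embryos, a null mutant of the pocket protein whose cultures were grown for longer. Libraries of extract 3 and of the *lin-35* null were made with a newer protocol than the other libraries of the series.

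Each subunit and genotype has 1 list, called over all replicates at an Irreproducible Discovery Rate (IDR) of 1%. The lists therefore show no spread between replicates and no read depth, and sites are not replicates, so that values are given as descriptions without a test. The LIN-54 list held 2290 peaks, LIN-9 2067, LIN-37 2111, and LIN-52 2284. All peaks of a list share 1 width, which was 404 bp for LIN-54, 424 bp for LIN-9, 584 bp for LIN-37, and 464 bp for LIN-52, and the summit is the middle of the peak in every list. The SPP signal value, which measures peak height, ran from 281 to 78500 with a median of 780 for LIN-54. The medians were 622 for LIN-9, 541 for LIN-37, and 516 for LIN-52. These scales are not shared between lists. Heights are therefore compared as percentiles of a list, where 100 is its highest peak. The *lin-35* null lists of these subunits hold 927 to 1674 peaks, with widths of 576 to 630 bp. Wider peaks overlap others more readily, and percentiles of the wild-type and mutant lists are not on one scale.

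LIN-54 shared most of its peaks with each of the other MuvB subunits. Of the 2290 LIN-54 peaks, 1946 (85.0%) were overlapped by a LIN-9 peak by at least 1 bp, 1900 (83.0%) by a LIN-37 peak, and 2000 (87.3%) by a LIN-52 peak. In the other direction, 1947 LIN-9 peaks (94.2%), 1953 LIN-37 peaks (92.5%), and 2009 LIN-52 peaks (88.0%) were overlapped by a LIN-54 peak. The exact 95% binomial intervals of these shares were 83.4% to 86.4% for LIN-54 by LIN-9, 81.4% to 84.5% by LIN-37, and 85.9% to 88.7% by LIN-52, and they cover counting error only. Among the pairs that leave LIN-54 out, the shares ran from 84.2% to 93.7%. LIN-9 peaks were overlapped by LIN-37 in 87.6% and by LIN-52 in 93.7% of cases, LIN-37 peaks by LIN-9 in 88.5% and by LIN-52 in 93.4%, and LIN-52 peaks by LIN-9 in 85.3% and by LIN-37 in 84.2%. In each pair with LIN-54, the other, shorter list was the more completely covered.

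The peaks without a partner lay low in the list. LIN-54 peaks with a LIN-9 partner had a median percentile of 57.5, and the 344 without one had a median of 11.9. The corresponding medians were 58.4 and 15.4 for LIN-37, and 56.2 and 13.2 for LIN-52. Among the 229 LIN-54 peaks of the lowest 10 percentile points, 36.2% were overlapped by LIN-9, 39.7% by LIN-37, and 47.6% by LIN-52. Between percentiles 40 and 50 the shares were 95.6%, 89.5%, and 93.9%. Above the 50th percentile every LIN-54 peak had a LIN-9 partner, and above the 70th every LIN-54 peak had a partner in all 3 lists. Seen from the other lists, LIN-54 overlapped 64.1% of the lowest LIN-9 peaks, 66.8% of the lowest LIN-37 peaks, and 49.6% of the lowest LIN-52 peaks. The highest LIN-9 peak without LIN-54 stood at percentile 45.9, the highest such LIN-37 peak at 55.0, and the highest such LIN-52 peak at 83.9.

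**Figure D1:**
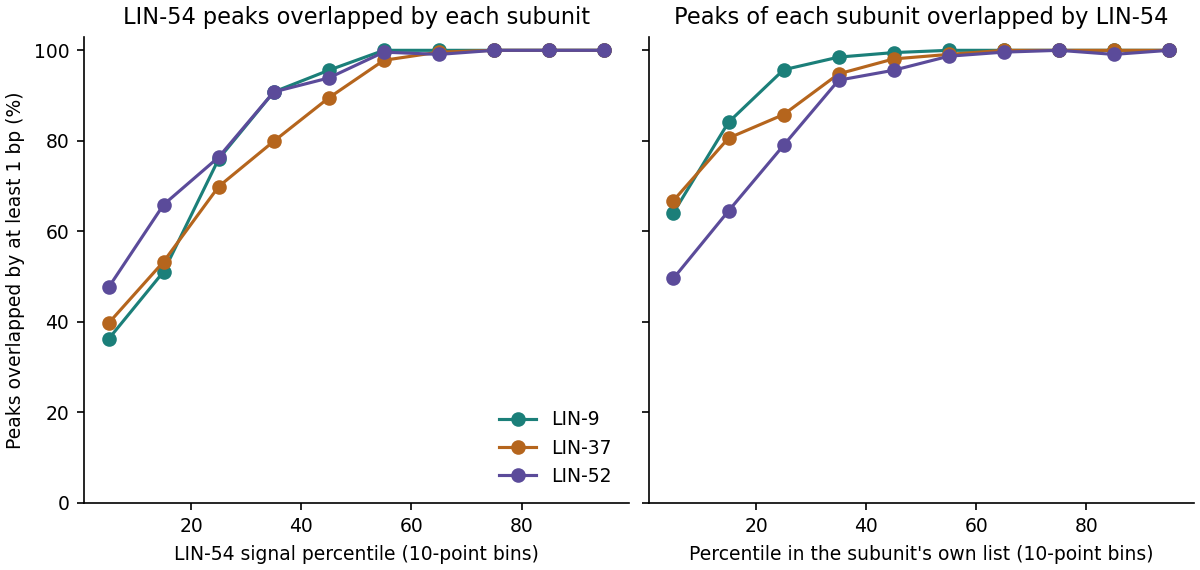
Share of peaks (%) overlapped by at least 1 bp against signal percentile in bins of 10 points, for LIN-54 peaks overlapped by each other subunit (left) and for peaks of each subunit overlapped by LIN-54 (right). Each point is 1 bin of 1 list; the shares of LIN-54 peaks start at 36.2% (LIN-9), 39.7% (LIN-37), and 47.6% (LIN-52) in the lowest bin and reach at least 97.8% in every bin above the 50th percentile.

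Merging overlapping peaks of the 4 lists gave 2566 MuvB regions. Of these, 1668 held peaks of all 4 subunits, with a median of 59.8 for the mean percentile of their peaks. The next most frequent sets were LIN-54 alone, in 150 regions, and LIN-52 alone, in 144. LIN-9 alone was found in 38 regions and LIN-37 alone in 49. Where 3 of the 4 subunits had a peak, LIN-37 was the one missing in 124 regions, LIN-9 in 79, LIN-54 in 40, and LIN-52 in 30. The 3-subunit regions had a median mean percentile of 17.8, and the 1-subunit regions one of 8.17. LIN-54 was thus present in 2206 regions and absent from 360, and 231 of these 360 held only 1 of the other subunits.

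**Figure D2:**
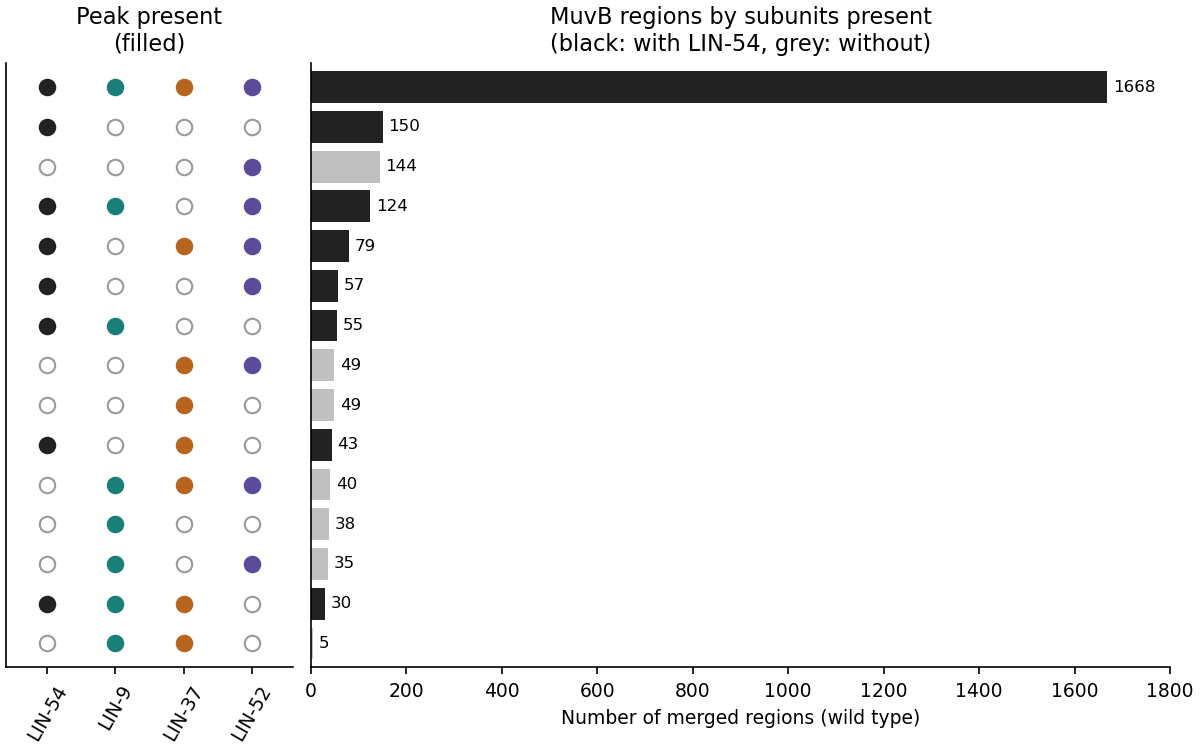
Number of merged wild-type MuvB regions (x axis) for each set of subunits with a peak (filled circles at left), with black bars for sets that include LIN-54 and grey bars for sets that do not. The set of all 4 subunits accounts for 1668 of 2566 regions, LIN-54 alone for 150, and LIN-9, LIN-37, and LIN-52 without LIN-54 for 40.

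Peak heights of LIN-54 and of the other subunits ranked the sites in nearly the same order. Over overlapping pairs, Spearman's rho between percentiles was 0.949 for LIN-54 and LIN-9 (n = 1946 pairs), 0.936 for LIN-54 and LIN-37 (n = 1900), and 0.934 for LIN-54 and LIN-52 (n = 2000). It was 0.935 for LIN-9 and LIN-37, 0.941 for LIN-9 and LIN-52, and 0.923 for LIN-37 and LIN-52. The points are sites, and the LIN-54 and LIN-9 lists share all 3 extracts. LIN-52 shares 1 extract with each of them, and the LIN-37 sample of the series comes from that same extract, whereas the earlier LIN-37 libraries are not described by the labels. The order of the coefficients was another one in regions with 1 peak of each subunit (n = 1512), where rho was 0.977 for LIN-37 and LIN-52, 0.975 for LIN-9 and LIN-52, 0.972 for LIN-54 and LIN-9, 0.968 for LIN-9 and LIN-37, 0.963 for LIN-54 and LIN-37, and 0.960 for LIN-54 and LIN-52. The median difference between the percentiles of a pair was 4.06 points for LIN-9, 4.40 for LIN-37, and 4.45 for LIN-52. Differences above 25 points were found in 62, 98, and 93 pairs, respectively.

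Exactly 1 peak of each subunit was present in 1512 of the 1668 regions with all 4 (90.6%). In these regions the percentiles of LIN-54 and LIN-9 had a rho of 0.976 where LIN-54 was above its 50th percentile (n = 1013) and of 0.608 where it was below (n = 499). For LIN-37 these values were 0.968 and 0.542, and for LIN-52 0.962 and 0.504. The order was therefore tight among high sites and loose among low ones, a split that was made after the data had been seen. LIN-54 exceeded the mean percentile of the other 3 by a median of 1.64 points, as LIN-52 did by 1.67 points, and the medians were -1.44 for LIN-9 and -1.36 for LIN-37. The LIN-54 and LIN-52 lists are the longer ones, with 2290 and 2284 peaks beside 2067 for LIN-9 and 2111 for LIN-37. A percentile depends on list length, whose part in these medians was not tested. LIN-54 lay within 10 points of the mean of the other 3 in 1267 regions (83.8%). The shares within 10 points were 88.1% for LIN-9, 87.0% for LIN-37, and 86.5% for LIN-52, each measured against its own other 3.

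**Figure D3:**
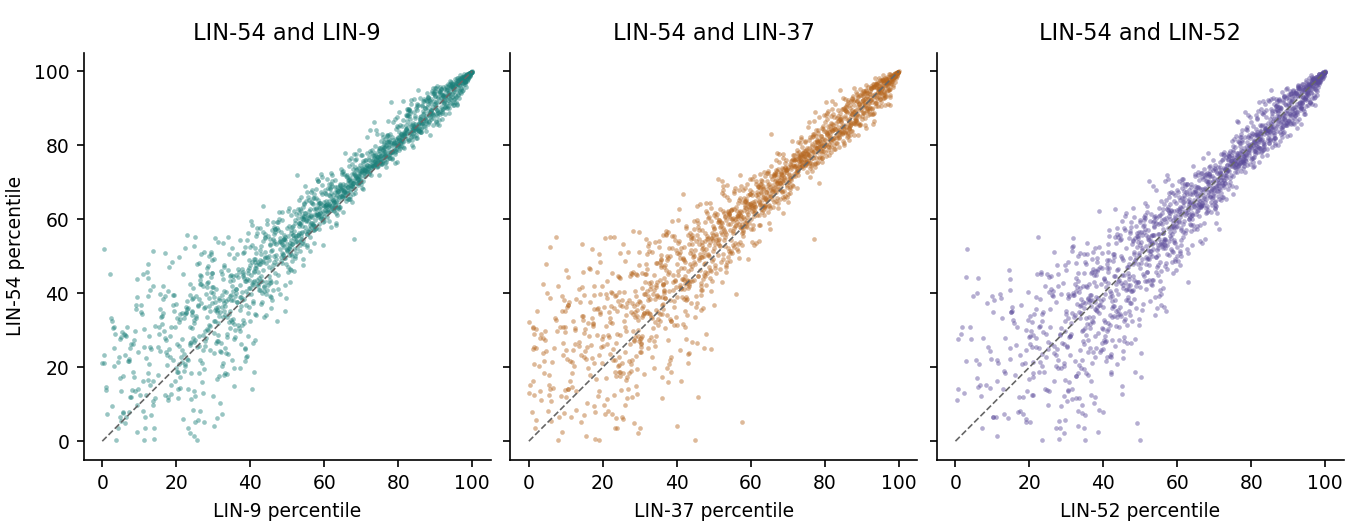
LIN-54 signal percentile (y axis) against the LIN-9, LIN-37, and LIN-52 percentile (x axis) in the 1512 regions with exactly 1 peak of each subunit, with 1 point per region and a dashed line where both percentiles are equal. The points narrow towards the upper right in all 3 panels, where rho above the 50th LIN-54 percentile is 0.976, 0.968, and 0.962, and they spread out below it.

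The 5 sites of highest mean percentile stood at the top of all 4 lists. The highest, on chromosome V from 10897096 to 10897679 (ce10, as all positions here), lies in the promoter assigned to *emo-1*, which encodes a subunit of the protein translocation channel. It was the highest peak in each of the 4 MuvB lists. The next sites were the bidirectional promoter of *K01G5.10* and *K01G5.9* on chromosome III from 10758859 to 10759442, the promoter of *rpl-3*, which encodes a ribosomal protein, on chromosome III from 3867246 to 3867829, and the promoter of *tba-2*, an alpha-tubulin gene, on chromosome I from 12966633 to 12967216. All 4 subunits stood at percentiles of at least 99.8 there. The fifth, the bidirectional promoter of *Y53F4B.11* and *Y53F4B.9* on chromosome II from 15010274 to 15010857, had percentiles of 99.8, 99.8, 99.9, and 99.8 in the LIN-54, LIN-9, LIN-37, and LIN-52 lists. EFL-1, DPL-1, and LIN-35 stood at 99.5 or above at all 5 sites.

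Middles of overlapping peaks lay within a few base pairs of each other. The median distance from LIN-54 was 7 bp to LIN-9 (quartiles 2 and 16 bp), 9 bp to LIN-37 (3 and 20 bp), and 7 bp to LIN-52 (2 and 18 bp). Of the LIN-54 peaks with a partner, 64.0%, 54.5%, and 61.5% had their middle within 10 bp of it, and 77, 121, and 96 pairs were more than 50 bp apart. The distances that leave LIN-54 out had medians of 8 bp (LIN-9 and LIN-37), 8 bp (LIN-9 and LIN-52), and 9 bp (LIN-37 and LIN-52). The median signed distance along the chromosome was 0 bp in each pair. No direction relative to genes or motifs was examined.

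The distances shortened with peak height. In the lowest 25% of LIN-54 peaks the median distance was 13 bp to LIN-9, 18 bp to LIN-37, and 16 bp to LIN-52, and in the highest 25% it was 3, 5, and 3 bp. In the 1512 regions with 1 peak of each subunit, the 4 middles spanned a median of 16 bp, and in 1416 regions (93.7%) they fell within 50 bp. LIN-54 lay a median of 5 bp from the median position of the other 3, as did LIN-9 and LIN-52 from theirs, and LIN-37 lay 7 bp from its. LIN-54 was the sole outermost subunit at either end of the 4 middles in 41.0% of regions, LIN-9 in 40.2%, LIN-52 in 43.7%, and LIN-37 in 49.8%. Ends shared by tied middles were left out of these shares.

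**Figure D4:**
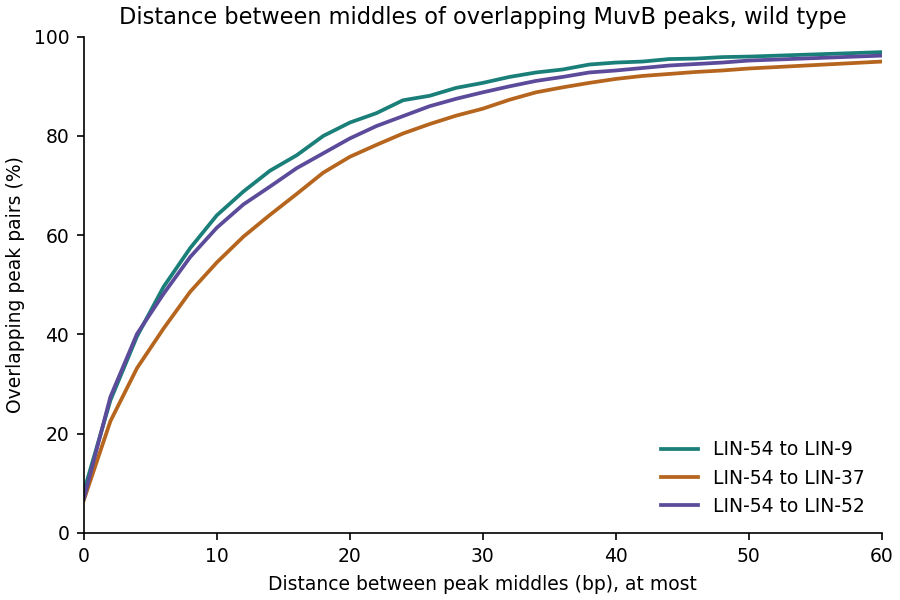
Cumulative share of overlapping peak pairs (y axis, %) whose middles lie at most the given distance apart (x axis, bp), for LIN-54 against LIN-9, LIN-37, and LIN-52. At 10 bp the curves pass 64.0% (LIN-9), 54.5% (LIN-37), and 61.5% (LIN-52).

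Relative to the remaining DRM subunits, LIN-54 middles were the nearest to those of DPL-1 and LIN-35. Where a region with 1 peak of each MuvB subunit also had a DPL-1 peak (n = 1277), the DPL-1 middle lay a median of 5 bp from that of LIN-54, 7 bp from LIN-52, 8 bp from LIN-9, and 11 bp from LIN-37. For LIN-35 (n = 1336) the medians were 5 bp from LIN-54, 7 bp from LIN-52, 8 bp from LIN-9, and 10 bp from LIN-37. For EFL-1 (n = 1393) they were 6 bp from LIN-52, 7 bp from LIN-54, and 8 bp from LIN-9 and from LIN-37. LIN-54 and LIN-9 share 2 extracts with LIN-35 and 2 with DPL-1. LIN-52 shares extracts 1b and 3 with DPL-1, all of its extracts with EFL-1, and none with LIN-35. The part of extract, library protocol, and peak width in these differences was not tested.

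A total of 152 LIN-54 peaks (6.64%) were overlapped by none of the other 3 MuvB subunits, and they formed 150 regions. These peaks were low, with a median percentile of 9.52 and a maximum of 47.3, and 142 of them lay in the lowest 25% of the list. The median distance to the middle of the nearest other MuvB peak was 10428 bp, and the smallest was 475 bp. For 4 peaks another MuvB middle lay within 1000 bp. With all 4 lists shortened to the length of the shortest by leaving out the lowest peaks, the count fell from 152 to 92. LIN-54 and LIN-52 had similar shares of peaks alone (152 and 145 peaks, the latter 6.35% of its list), whereas LIN-9 had 38 (1.84%) and LIN-37 had 57 (2.70%). A further 163 LIN-54 peaks had 1 partner, 242 had 2, and 1733 (75.7%) had all 3, and the median percentile rose from 14.0 to 22.3 and 62.1 over these groups.

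Peaks of the other DRM subunits were few at the LIN-54 peaks alone. LIN-35 overlapped 40 of the 152 (26.3%), DPL-1 10 (6.58%), and EFL-1 9 (5.92%), beside 76.0%, 68.5%, and 77.5% of all LIN-54 peaks. LIN-54 peaks of the lowest 25% that did have a MuvB partner (n = 430), a comparison added after the data had been seen, had LIN-35 in 50.5%, DPL-1 in 30.9%, and EFL-1 in 53.7%. Their median percentile was 13.6, beside 9.52 for the peaks alone, so the 2 sets are not matched in height. No region of LIN-54 alone had both DPL-1 and EFL-1, and 102 of the 152 peaks overlapped no other peak in any list examined. In *lin-35* null embryos, LIN-54 itself had a peak at 9 of the 152 sites (5.92%), beside 44.5% of all LIN-54 peaks and 28.1% of the low peaks with a partner. Of the same 152 sites, 14 (9.21%) had LIN-9 in the mutant, 11 (7.24%) LIN-52, and 2 (1.32%) LIN-37, beside 51.7%, 47.3%, and 35.7% of all LIN-54 peaks.

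The LIN-52 peaks without a MuvB partner, which are as low (median percentile 8.06), differed in these counts. EFL-1 overlapped 63 of the 145 (43.4%), LIN-35 43 (29.7%), and DPL-1 28 (19.3%), beside 83.1%, 76.9%, and 71.0% of all LIN-52 peaks. LIN-52 and EFL-1 come from the same extracts (1b, 2b, and 3). LIN-54 shares only extract 3 with EFL-1, and extracts 1a and 2a with LIN-35. Extract and subunit therefore cannot be told apart when the peaks alone of LIN-54 and LIN-52 are compared. In *lin-35* null embryos LIN-52 had a peak at 55 of the 145 LIN-52 peaks alone (37.9%), LIN-9 at 63 (43.4%), and LIN-54 at 40 (27.6%). Over all LIN-52 peaks the mutant shares were higher, at 56.4% for LIN-9 and 48.5% for LIN-54. Of the 57 LIN-37 peaks alone, 16 had EFL-1 (28.1%), 7 LIN-35 (12.3%), and 2 DPL-1 (3.51%), beside 85.3%, 78.0%, and 73.2% of all LIN-37 peaks, and 3 had LIN-37 in the *lin-35* null. Of the 38 LIN-9 peaks alone, 17 had LIN-35 (44.7%), 10 EFL-1 (26.3%), and 9 DPL-1 (23.7%), beside 83.6%, 86.3%, and 77.2% of all LIN-9 peaks, and 11 had LIN-9 in the *lin-35* null. The share matched by the same subunit in the mutant was thus 5.92% for LIN-54 and 5.26% for LIN-37, beside 28.9% for LIN-9 and 37.9% for LIN-52. Over all wild-type peaks of each list these shares were 44.5%, 40.1%, 57.3%, and 52% in the same order, and the *lin-35* null lists held 1225, 927, 1674, and 1388 peaks.

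Regions with 2 MuvB subunits differed in which of LIN-35 and EFL-1 was the more frequent. Over all 2566 MuvB regions, LIN-35 was present in 71.0%, EFL-1 in 72.9%, and DPL-1 in 62.5%. LIN-54 with LIN-9 only (55 regions) had LIN-35 in 42 (76.4%) and EFL-1 in 7 (12.7%), and these 2 MuvB subunits share extracts 1a and 2a with LIN-35. LIN-37 with LIN-52 only (49 regions) had LIN-35 in 18 (36.7%) and EFL-1 in 25 (51%), and LIN-52 shares extracts 1b and 2b with EFL-1. LIN-54 with LIN-52 only (57 regions) had 22 (38.6%) and 16 (28.1%), and LIN-54 with LIN-37 only (43 regions) had 4 (9.30%) and 2 (4.65%). LIN-9 with LIN-52 only (35 regions) had LIN-35 in 20 (57.1%) and EFL-1 in 23 (65.7%), with LIN-9 from the same extracts as LIN-54. Extract and subunit cannot be told apart in these lists. DPL-1, made from extracts of both kinds, was found in 21 (38.2%), 13 (26.5%), 12 (21.1%), 1 (2.33%), and 12 (34.3%) of these regions, in the order given. The remaining set, LIN-9 with LIN-37 only, held 5 regions, with LIN-35 in 1, EFL-1 in 2, and DPL-1 in 1.

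The 5 highest LIN-54 peaks without a MuvB partner reached the middle of the list. The highest was on chromosome IV from 3311250 to 3311653, at percentile 47.3, with the nearest other MuvB middle 2139 bp away. LIN-54 also had a peak there in the *lin-35* null, at percentile 9.96, and no other list examined had one. The second, on chromosome I from 3934951 to 3935354, stood at 46.0 and had LIN-35 at percentile 38.9 and DPL-1 at 16.6. The third, on chromosome V from 5780668 to 5781071, stood at 42.8, with no peak in any other list and the nearest other MuvB middle 96169 bp away. The fourth, on chromosome I from 13253152 to 13253555, stood at 33.2 with LIN-35 at 32.1 and DPL-1 at 1.69, and the fifth, on chromosome IV from 3047355 to 3047758, stood at 32.9 with no peak in any other list. None of the 5 had EFL-1. The gene assignments used here cover sites of E2F-DP and LIN-35 with at least 3 MuvB subunits, so no genes are named for these 5.

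By chromosome, 15 of the 152 LIN-54 peaks alone (9.87%) were on X, beside 120 of all 2290 (5.24%) and 24 of the 430 low LIN-54 peaks with a partner (5.58%). LIN-37 peaks alone were on X in 6 of 57 cases (10.5%, beside 4.88% of all LIN-37 peaks), LIN-52 peaks alone in 7 of 145 (4.83%, beside 5.08%), and LIN-9 peaks alone in 2 of 38 (5.26%, beside 5.03%). On chromosome III the share was 16.4% of LIN-54 peaks alone and 22.3% of all LIN-54 peaks. On the remaining chromosomes the 2 shares were within 2 points of each other.

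In the reverse direction, 40 regions had LIN-9, LIN-37, and LIN-52 but no LIN-54. Their peaks had a median mean percentile of 18.7, beside 17.8 in all regions with 3 subunits. With the lists shortened to equal length, 70 such regions were found. EFL-1 was present in 32 of them (80%), LIN-35 in 24 (60.0%), and DPL-1 in 20 (50.0%), beside 72.9%, 71.0%, and 62.5% of all MuvB regions. LIN-54 had a *lin-35* null peak in 18 of the 40 (45.0%), beside 42.7% of all regions, so that these sites had a LIN-54 peak in the mutant list and none in the wild-type list. LIN-9 had one in 22 (55.0%), LIN-52 in 21 (52.5%), and LIN-37 in 11 (27.5%), beside 50.2%, 45.9%, and 32.8% of all regions. The 31 of these 40 regions with a mean percentile below 25 had EFL-1 in 77.4% and *lin-35* null LIN-54 in 38.7%.

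Regions that lacked another single subunit, a comparison added after the data had been seen, had fewer of these peaks in most cases. The 79 regions without LIN-9 had EFL-1 in 35.4%, LIN-35 in 21.5%, and *lin-35* null LIN-54 in 15.2%. The 124 regions without LIN-37 had them in 57.3%, 73.4%, and 29.8%, and the 30 without LIN-52 in 43.3%, 60.0%, and 13.3%. The regions with all 4 subunits had EFL-1 in 93.4%, LIN-35 in 87.5%, and *lin-35* null LIN-54 in 53.7%. At least 1 MuvB subunit had a *lin-35* null peak in 24 of the 40 regions without LIN-54 (60.0%), beside 61.8% of the regions with all 4 and 51.8% of all regions. Extract and subunit cannot be told apart in the wild-type shares of these regions either. A peak missing from a list may lie just under its IDR limit, and whether it did was not tested, since the lists hold no values under that limit.

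**Figure D5:**
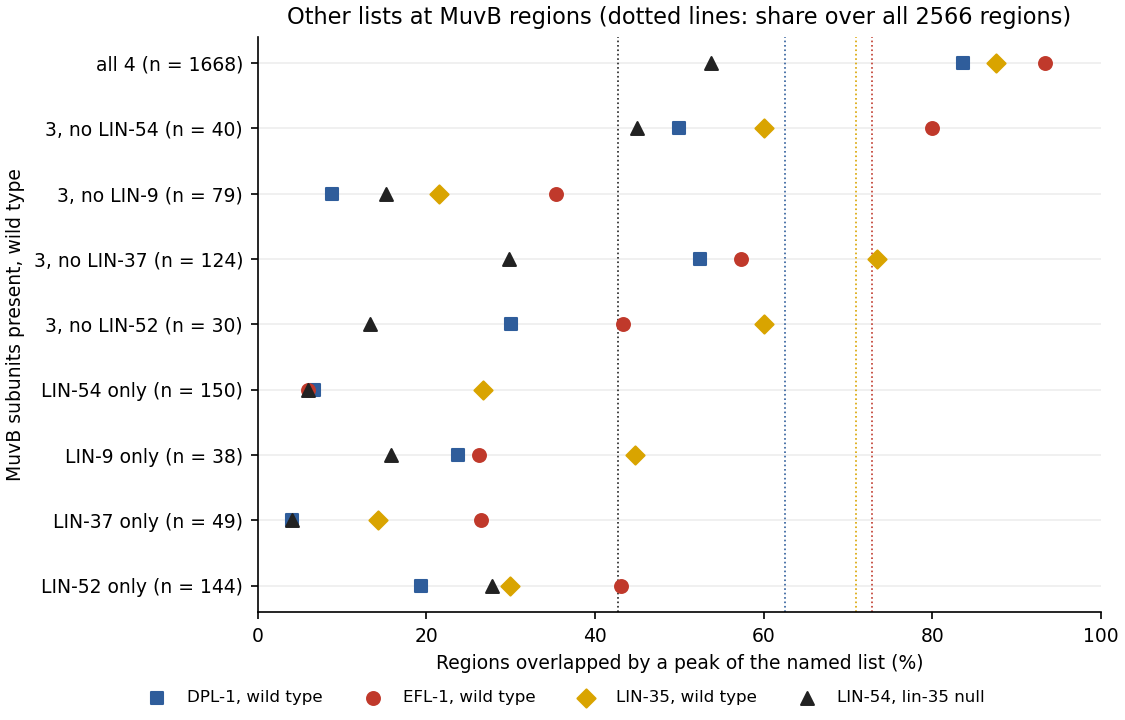
Share of merged wild-type MuvB regions (x axis, %) that a wild-type DPL-1, EFL-1, or LIN-35 peak or a *lin-35* null LIN-54 peak overlaps, for each set of MuvB subunits present (y axis, with the number of regions). Dotted lines give the shares over all 2566 regions, and regions of LIN-54 only have DPL-1, EFL-1, and *lin-35* null LIN-54 in 6.67%, 6%, and 6%. The 40 regions with LIN-9, LIN-37, and LIN-52 but no LIN-54 have EFL-1 in 80%.

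The highest of the 40 regions was on chromosome IV from 13438783 to 13439529, with LIN-52 at percentile 83.9, LIN-9 at 45.9, and LIN-37 at 30.8. EFL-1 stood at 72.5 there and DPL-1 at 41.5, and LIN-35 had no peak. In the *lin-35* null, LIN-52 (90.6), LIN-37 (70.6), and LIN-9 (66.1) had peaks at this site and LIN-54 had none, so that LIN-54 was missing in both genotypes. The second, on chromosome X from 11093857 to 11094440 near the end of *W04G3.11*, had LIN-52 at 49.1, LIN-37 at 32.9, LIN-9 at 25.8, and EFL-1 at 89.7. LIN-54 was present there in the *lin-35* null, at percentile 29.4.

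The next 3 regions lie at promoters with an assigned gene. The bidirectional promoter of *F44E5.5* and *F44E5.4*, 2 genes of the Hsp70 chaperone family, on chromosome II from 11759065 to 11759648, had LIN-37 at 50.9, LIN-9 at 28.5, and LIN-52 at 25.7, and LIN-54 was missing in both genotypes. At the bidirectional promoter of *vha-1*, which encodes a subunit of the vacuolar proton pump, and *sqv-3*, which encodes a glycosyltransferase, on chromosome III from 9780382 to 9780965, LIN-37 stood at 40.9, LIN-52 at 37.4, and LIN-9 at 25.4. The promoter of *T06A10.3* on chromosome IV from 16865357 to 16865940 had LIN-52 at 44.7, LIN-9 at 29.9, and LIN-37 at 26.9. At both of these sites LIN-54 had a peak in the *lin-35* null, at percentiles 23.9 and 44.7.

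Where all 4 subunits had 1 peak each, LIN-54 stood at least 10 percentile points above the mean of the other 3 in 176 regions and at least 10 points below it in 69. For LIN-52, whose list is also long, these counts were 163 and 41. For the shorter LIN-9 and LIN-37 lists they were 35 and 145, and 35 and 161. The part of list length in these counts was not tested. The limits of 10 points were chosen after the data had been seen. The regions with LIN-54 below had EFL-1 in 95.7%, LIN-35 in 76.8%, and *lin-35* null LIN-54 in 58.0%. The regions with LIN-54 above had EFL-1 in 72.2%, LIN-35 in 65.3%, and *lin-35* null LIN-54 in 12.5%, and the regions within 10 points had them in 96.1%, 92.9%, and 58.6%. The groups differed in height, with a median mean percentile of 27.9 below, 67.4 within 10 points, and 32.3 above. At mean percentiles from 10 to 50, EFL-1 was in 95.5%, 87.6%, and 70.1%, and LIN-35 in 77.6%, 76.5%, and 61.2%, in that order. The median mean percentiles there were 27.7, 34.6, and 29.7. Grouped by LIN-52 instead, EFL-1 was in 47.1%, 85.1%, and 88.9%. Grouped by LIN-9 it was in 74.6%, 87.7%, and 79.4%, and by LIN-37 in 84.5%, 84.8%, and 70.6%. EFL-1 shares all of its extracts with LIN-52 and only extract 3 with LIN-54, so that extract and subunit cannot be told apart. At the same percentiles, the *lin-35* null LIN-54 shares were 58.2% of 67 regions with LIN-54 below, 31.6% of 323 within 10 points, and 10.9% of 147 with LIN-54 above. The other mutant lists, those of DPL-1 and EFL-1 included, had the same order, so it was not particular to LIN-54. The mutant shares were 70.1%, 39.9%, and 16.3% for LIN-9, 37.3%, 23.5%, and 6.12% for LIN-37, and 64.2%, 34.4%, and 14.3% for LIN-52. Grouped by LIN-52 in place of LIN-54, the mutant LIN-54 shares had the opposite order at these percentiles. LIN-54 in the mutant was found in 49.0% of 153 regions with LIN-52 above the others and in 1 of 34 regions with LIN-52 below. For LIN-9 and LIN-37 the shares below and above were 28.3% and 17.6%, and 27.5% and 29.4%. The difference of a subunit from the mean of the others is shared between these groupings, so they are not separate sets of sites.

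The 5 sites where LIN-54 most exceeded the other subunits had none of EFL-1, LIN-35, and the *lin-35* null lists. Of the 176 regions with LIN-54 at least 10 points above, 72.2% had EFL-1, 65.3% LIN-35, and 12.5% *lin-35* null LIN-54. On chromosome V from 1201463 to 1202046, LIN-54 stood at percentile 52.1, LIN-37 at 17.1, LIN-52 at 3.20, and LIN-9 at 0.387. On chromosome I from 1752978 to 1753561, LIN-54 stood at 55.3 and the other 3 between 22.3 and 25. The remaining 3 were on chromosome X from 15973643 to 15974226 (LIN-54 at 39.3), chromosome I from 2829299 to 2829882 (47.9), and chromosome X from 15839357 to 15839940 (45.9). A DPL-1 peak was present at the 2 sites on chromosome I, at percentiles 2.77 and 0.565.

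The 5 sites where LIN-54 was furthest below all had EFL-1, which was present in 93.4% of the regions with all 4 subunits. The bidirectional promoter of *abtm-1*, a mitochondrial ABC transporter gene, and *eif-3.I*, which encodes a subunit of translation initiation factor 3, on chromosome I from 2485373 to 2485956, had LIN-54 at percentile 0.306, LIN-9 at 25.6, LIN-37 at 45.0, and LIN-52 at 50.0. In the *lin-35* null, LIN-54 stood at 55.3 at this site, beside 66.5 for LIN-9, 45.6 for LIN-37, and 52.9 for LIN-52. The mutant LIN-54 list holds 1225 peaks and the wild-type list 2290, so their percentiles are not on one scale and show no rise in binding. The paper reports reduced E2F-DP and MuvB occupancy across the genome in the mutant, and a mutant replicate whose signal appeared elevated. The next sites were on chromosome III from 931178 to 931761 (LIN-54 at 3.97), chromosome IV from 14033652 to 14034235 (5.28), an intron of *Y116A8C.43* on chromosome IV from 17089461 to 17090044 (2.27), and an intergenic site assigned to *Y65A5A.1* on chromosome IV from 16401317 to 16401900 (18.8). EFL-1 stood at 34.6, 41.7, 19.1, and 54 there. LIN-54 had a *lin-35* null peak at the site of *Y116A8C.43*, at percentile 42.4, and none at the other 3. These 10 sites were taken from the extremes of the same percentiles, so their LIN-54 values are a description.

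At regions with DPL-1, EFL-1, LIN-35, and at least 3 MuvB subunits, LIN-54 was nearly always present. Of 1412 such regions, 1339 (94.8%) held all 4 MuvB subunits, and 18 (1.27%) lacked LIN-54, 44 (3.12%) LIN-37, 6 (0.425%) LIN-9, and 5 (0.354%) LIN-52. The definition requires at least 3 MuvB subunits, which sets a high share from the start. The sites of the genes below were assigned under a definition of this kind, so their counts with all 4 subunits are read against 94.8%.

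Sites were assigned to 6 of the 8 genes that encode DRM subunits, in 7 places, and all 7 had the 4 MuvB subunits, beside 94.8% of such regions. The promoter of *efl-1* had the highest peaks, with LIN-54 at percentile 98.5, LIN-9 and LIN-37 at 99.1, and LIN-52 at 99.2. At the bidirectional promoter of *lin-54*, with its LIN-54 peak on chromosome IV from 13240473 to 13240876, the percentiles were 81.9, 81.8, 82.5, and 84.4 in the same order. *dpl-1*, *lin-35*, and *lin-53* had LIN-54 at 84.7, 81.8, and 82.4. *lin-9* had a peak at its promoter (85.5) and a lower one near its termination site (37.4), where LIN-37 stood at 27.8 and LIN-52 at 47.3.

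Sites were assigned to 31 of the 37 cell division genes, and all 33 had the 4 subunits, a share near the 94.8% of such regions. A LIN-54 peak of *spd-5*, on chromosome I from 5175538 to 5175941, was counted more than once among these sites. Their median percentile was 79.9 for LIN-54, LIN-9, and LIN-52 and 80 for LIN-37, and the median difference of LIN-54 from the other 3 was -0.38 points. At *cdk-1*, the mitotic cyclin-dependent kinase, the LIN-54 peak on chromosome III from 9747093 to 9747496 stood at 83.3, with LIN-9 at 83.9, LIN-37 at 80.5, and LIN-52 at 82.4. Among cyclin genes, LIN-54 stood at 90.2 for *cyb-1*, 79 for *cyb-3*, and 88.5 for *cye-1*. Kinetochore genes ranged from 71.0 for *him-10* to 91.7 for *knl-1*. Genes of the chromosomal passenger complex stood at 78.2 (*air-2*), 74.1 (*bir-1*), 82.6 (*csc-1*), and 80.4 (*icp-1*). The centriole genes *sas-5* and *sas-6* stood at 88.6 and 88.1. The lowest site of the list was that of *cki-1*, a cyclin-dependent kinase inhibitor gene, with LIN-54 at 43.4, LIN-9 at 34.4, LIN-37 at 43.1, and LIN-52 at 51.2. The largest difference was at *knl-3*, where LIN-54 stood at 91.0 and the others between 95.9 and 97.2.

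Of the 22 sites assigned to 22 of 29 DNA replication and repair genes, 21 had all 4 subunits and 1, at *cdc-6*, lacked LIN-54. *cdc-6*, which encodes a replication licensing factor, had low peaks of LIN-9 (7.35), LIN-37 (17), and LIN-52 (22.4, on chromosome I from 4270345 to 4270808). *cdt-1*, whose product acts in the same step, had LIN-54 at 88.8 and LIN-9 at 89.1. The helicase genes *mcm-2* to *mcm-7* had LIN-54 between 73.6 (*mcm-6*) and 90.3 (*mcm-7*), and *pcn-1*, which encodes the polymerase clamp PCNA, stood at 95.1. *rnr-2*, a ribonucleotide reductase gene, had LIN-54 furthest above the others, at 62.4 beside 59.5, 59.9, and 52.4. In the list of chromatin and germline genes, 4 of 20 had a site, all with the 4 subunits, with LIN-54 at 99.5 for the histone methyltransferase gene *set-21*, 95.9 for *mes-2*, 75.2 for *mes-6*, and 69.1 for *mes-4*. Over the 4 lists, LIN-54 differed from the mean of the other 3 by -5.41 to 5.14 points at the 65 gene sites where it had a peak, and by less than 5 points at 63 of them. Some of these sites serve a pair of divergent genes, lie beside each other, or share a LIN-54 peak, as at *spd-5*, so they are not independent.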

How the data were processed

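The deposited narrowPeak lists give an SPP signal, which the authors made from the ChIP libraries of a list against input, on a scale not given in the sources used here. They also give a false discovery rate on the −log10 scale, which the authors deposited and which was not used. In the wild-type lists it is constant for LIN-54 (3.81) and LIN-9 (3.62). It runs from 2.92 to 3.62 for LIN-37 and from 2.93 to 3.62 for LIN-52. Reads were mapped by the authors to the ce10 build (Bowtie 1.1.2) with up to 2 reported alignments, and SPP peaks that passed an IDR of 1% over replicates were kept. Read depth is unknown, and the signal tracks and input were not analysed here.

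Signal values were turned into percentiles within a list. An overlap of 1 bp or more counted as shared, with the highest overlapping peak used for percentiles and the nearest for distances. Regions were connected groups of overlapping peaks of the 4 lists. Low peaks are those in the lowest 25% of a list. Intervals are exact (Clopper-Pearson). Python 3.11.15 with numpy 2.4.6, pandas 2.3.3, scipy 1.17.1, and matplotlib 3.10.9 was used, and the steps were tested on simulated lists of 2400 sites, where all 13 quantities were recovered. Sites named in the text are the 5 at the extremes of each rule (highest LIN-54 peaks alone, highest regions of LIN-9, LIN-37, and LIN-52 without LIN-54, highest regions of all 4 subunits, LIN-54 furthest above and below the others). Gene names and locations were taken from the gene assignments of the study, and gene lists were set by hand. The members, lists, and rules were chosen with earlier results of these data known. Other overlap, width, list length, and threshold settings were tried. Motifs and sequences were not examined.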

Additional observations from a re-analysis of the deposited data

How the results depend on the processing

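The lists hold no values of single replicates and no counts under the IDR limit, so replicate error and depth were not assessed, and no replicate was left out. No paired analysis was possible because each subunit has a single list made from all of its replicates.

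Without the lowest 25% of every list, the LIN-54 shares were 86.4% (LIN-9), 84.7% (LIN-37), and 89.1% (LIN-52), the reverse shares 95.4%, 93.9%, and 89.5%, and rho 0.962, 0.950, and 0.947. With all lists shortened to the shortest, LIN-9 covered 90.3% and LIN-37 86.6% of LIN-54 peaks, and LIN-54 covered 90.6% of LIN-9 and 89.4% of LIN-37 peaks. LIN-54 peaks alone fell to 92, and regions with the other 3 subunits but no LIN-54 rose to 70, since the LIN-54 list then loses its lowest peaks. With peaks of 200 bp, LIN-54 covered 93.0% of LIN-9 and 89.5% of LIN-37 peaks. Asking for at least 2 of the other 3 subunits gave 129 regions without LIN-54. Pearson's r of log2 signal was 0.973, 0.963, and 0.964, rho over regions with 1 peak of each subunit was 0.972, 0.963, and 0.960, and distances among the highest 25% of peaks were 3, 4, and 3 bp. The other 42 of 69 values, over 21 results, moved by less than their counting interval or by less than 1.5 times, among them the count of LIN-54 peaks alone without the LIN-37 list.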
